A study of Homo sapiens with 23 samples.

Results

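Grainyhead-like and AP-2 proteins are transcription factors of surface epithelia. GRHL factors bind DNA as dimers and sustain epithelial junction genes such as CDH1 and the claudins. AP-2 factors also bind as dimers, at GC-rich sites, and in breast epithelium they are known for their part in the luminal programme and in the expression of ERBB2 and the estrogen receptor. The 7 genes described here are GRHL1, GRHL2 and GRHL3, and TFAP2A, TFAP2B, TFAP2C and TFAP2E, taken by name from 20033 protein-coding genes. A chromatin loop was counted at a gene when one of its paired bins of 5 kb overlapped the gene body, widened by 10 kb on each side (hg38). By that rule 21 of 9591 loops in the T30 list and 11 of 7075 loops in the T0 list belonged to the 7 genes.

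Both lists came from HiChIP in T47D, an established luminal line from breast carcinoma, positive for the progesterone receptor. In HiChIP, chromatin fragments near each other in a nucleus are ligated, and ligated pairs bound by a chosen protein are pulled down. The protein here was that receptor, per the labels, so that contact and receptor enrichment cannot be told apart in a loop. The T30 library carries R5020, a synthetic progestin, in its title as PR5020; neither its dose nor the unit of its time is given in the labels. The T0 library carries no agent in its labels. Both groups were T47D cells kept without phenol red in charcoal-treated serum and then without serum, per the growth protocol of the series, and each group was 1 library. Differences between the lists therefore have no replicate check, and every interval of a ratio below covers counting error only. The lists hold only loops that passed the authors' q-value of 0.05, so a gene with 0 loops had none past that threshold and may still have had contacts. Listed contacts summed to 135538 in T30 and 127457 in T0, and sequencing depth is unknown. The T30 list held no loop under 20 kb, against 574 in T0, and its median span was 80 kb, against 190 kb in T0. The labelled cell type can be checked here at loops alone: 5 of 8 luminal marker genes had a loop in T30 and 6 in T0, against 1 and 2 of 3 basal markers and 1 of 3 mesenchymal markers in each. Over all protein-coding genes 32.1% had a loop in T30 and 27.2% in T0. With so few markers, these counts do not tell the cell types apart.

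GRHL2 held most of the loops. It had 18 loops with 266 contacts in T30 and 10 loops with 202 contacts in T0, where contacts are read pairs between the bins of a loop. TFAP2E had 3 loops with 31 contacts in T30 and 0 in T0, and TFAP2A had 0 loops in T30 and 1 loop of 10 contacts in T0. GRHL1, GRHL3, TFAP2B and TFAP2C had no listed loop in either library. Thus 2 of the 7 genes had a loop in T30 and 2 in T0, with GRHL2 alone in both. Over all protein-coding genes 32.1% had a loop in T30, 27.2% in T0, 17.9% in both and 41.4% in either, so the number of members with a loop was near the background.

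**Figure D1:**
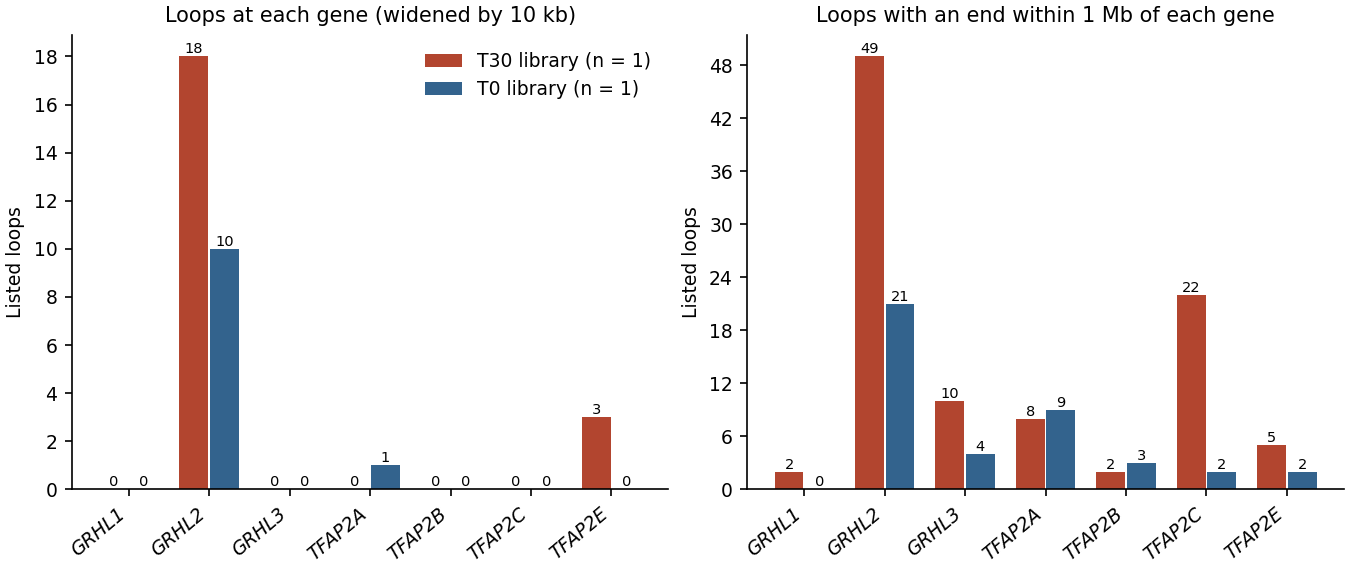
Listed loops at each of the 7 genes (left) and loops with an end within 1 Mb of each gene (right), in the T30 library and the T0 library, 1 library each. GRHL2 stands out in both panels with 18 and 10 loops at the gene, while TFAP2C had 22 T30 loops within 1 Mb and none at the gene.

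GRHL2 keeps epithelial cells in sheets by sustaining junction genes. It lies on chromosome 8 (101492439 to 101681200, hg38) and is read towards higher coordinates, so its lower end is the start of the gene. The adjoining long non-coding gene GRHL2-DT covers 101460958 to 101492705. Among the 20033 genes, GRHL2 ranked 29th by loops in T30 and 79th in T0. Among 3007 genes within 2-fold of its length of 188762 bp, 12 had as many loops in T30 and 40 in T0, GRHL2 included, and the median of these genes was 0 loops in both lists. GRHL2 therefore lay among the genes with most loops in both lists.

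The ratio of T30 to T0 loops at GRHL2 was 1.80 (exact 95% interval 0.788 to 4.36). The whole lists had a ratio of 1.36 (1.31 to 1.40), and chromosome 8 alone had 698 loops in T30 and 381 in T0, a ratio of 1.83 (1.61 to 2.08). The larger number at GRHL2 in T30 was thus close to that of its chromosome. Relative to the whole lists, the log2 ratio of 0.41 did not pass an exact two-sided binomial test of a gene's loops (adjusted p = 0.899, Benjamini-Hochberg over 1473 genes with at least 6 loops). That test compares 2 libraries and not 2 conditions, and it treats loops that share an end as independent. It called 10 genes higher in T30 (0.679%) and 8 lower (0.543%), and 130 and 102 at an unadjusted p under 0.05. In simulated loop numbers over those 1473 genes it found 2 of 100 genes made 4-fold higher, so a missed call says little about a gene.

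By partners, the distinct bins joined to a gene, GRHL2 had 12 in T30 and 7 in T0, a ratio of 1.71 (0.622 to 5.14). The rule used for a difference in partners was at least 2 times as many and at least 3 more in T30, and GRHL2 did not meet it with these counts. It did meet it with the unwidened gene body (12 partners in T30, 4 in T0) and with loops of at least 20 kb (12 in T30, 6 in T0), so the call depends on these settings. Of these partners, 8 lay outside the widened gene in T30 and 7 in T0. The remaining 4 in T30 lay within the gene, where T30 listed 3 loops with both ends inside and T0 listed 0. The difference of 5 partners was hence mostly internal. A loop with both ends inside counts both of its bins as partners, whereas other loops count 1, which adds to the internal number. Loops spread over 10 bins of the gene in T30 and over 7 in T0. The width given to the gene mattered for T0. With the unwidened gene body GRHL2 kept 18 loops in T30 and had 7 in T0, since T0 loops ended in the bin at 101485001, within GRHL2-DT and below the start of the gene.

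**Figure D2:**
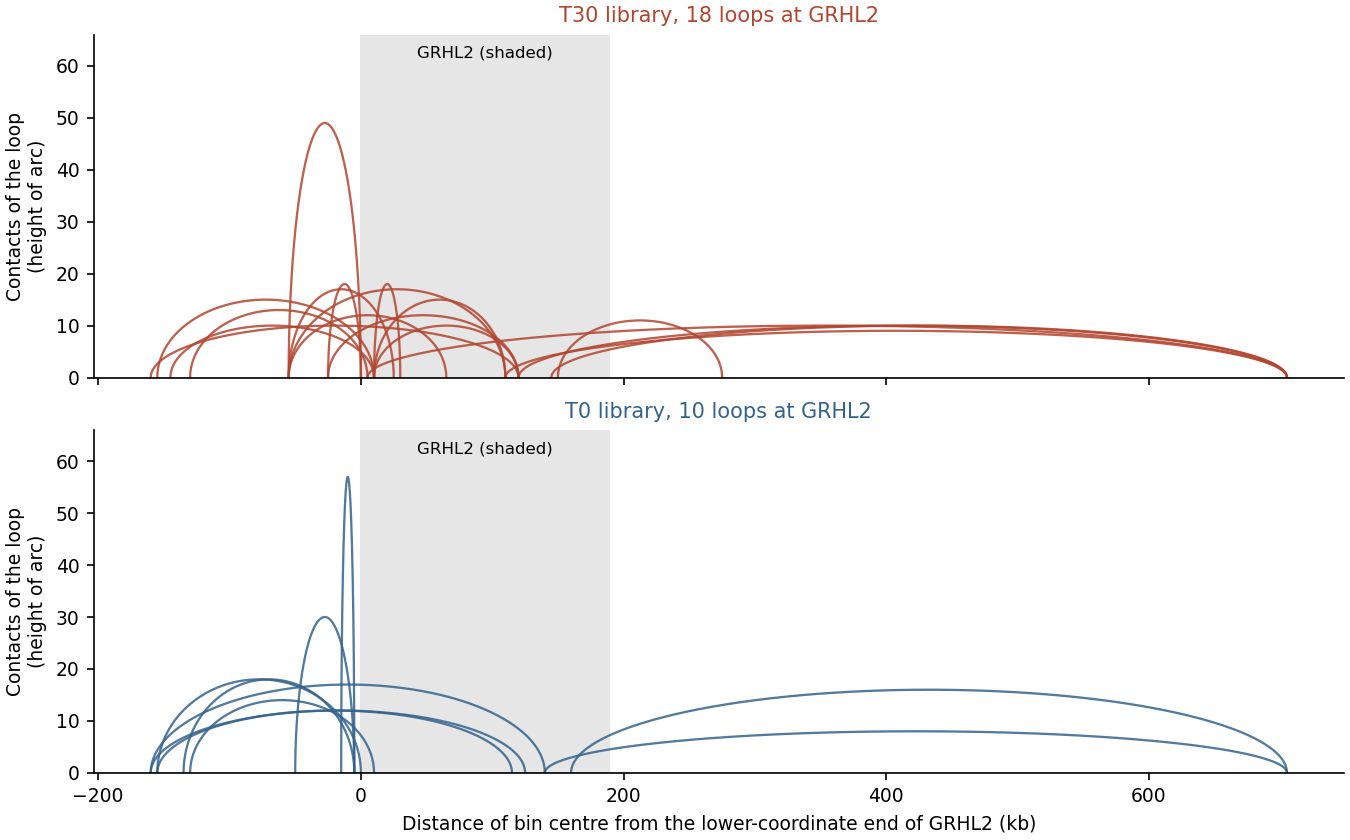
Each arc is a listed loop at GRHL2, drawn between its bin centres by distance from the lower-coordinate end of the gene (kb), with the arc height giving its contacts; the T30 library is above and the T0 library below, and the gene is shaded. T30 arcs gather on a bin centred at -54.9 kb and inside the gene, whereas most T0 arcs start 130 to 160 kb below it; both libraries hold arcs to a bin 705 kb above the start.

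The loop ends at GRHL2 fell into groups along the chromosome, set here as zones after the positions were seen. Distances count from the lower end of the gene. The distal upstream zone (180 to 120 kb below the gene) took part in 4 loops at GRHL2 with 48 contacts in T30, against 6 loops with 91 contacts in T0. The proximal upstream zone (60 to 40 kb below) took part in 4 loops with 95 contacts in T30, against 1 loop with 30 contacts in T0. The zone named GRHL2-DT (40 to 10 kb below) leaves out the part of that gene nearest the start of GRHL2. This zone took part in 2 loops with 30 contacts in T30, against 1 loop with 57 contacts in T0. That T0 loop spanned 10 kb, and the T30 list held no loop under 20 kb. The gene start (10 kb below to 15 kb above) had 9 loops with 158 contacts in T30 and 5 loops with 137 contacts in T0. In the gene body beyond 15 kb there were 12 loops with 151 contacts in T30 and 5 with 65 in T0. Seen together, the start had similar contacts in both lists, and the body had more in T30. However, 57 of the 137 T0 contacts at the start came from that 10 kb loop, a span that the T30 list lacks. The start was therefore not compared over like spans. The zone bounds were chosen on these loops, so the counts are a description without a test.

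**Figure D3:**
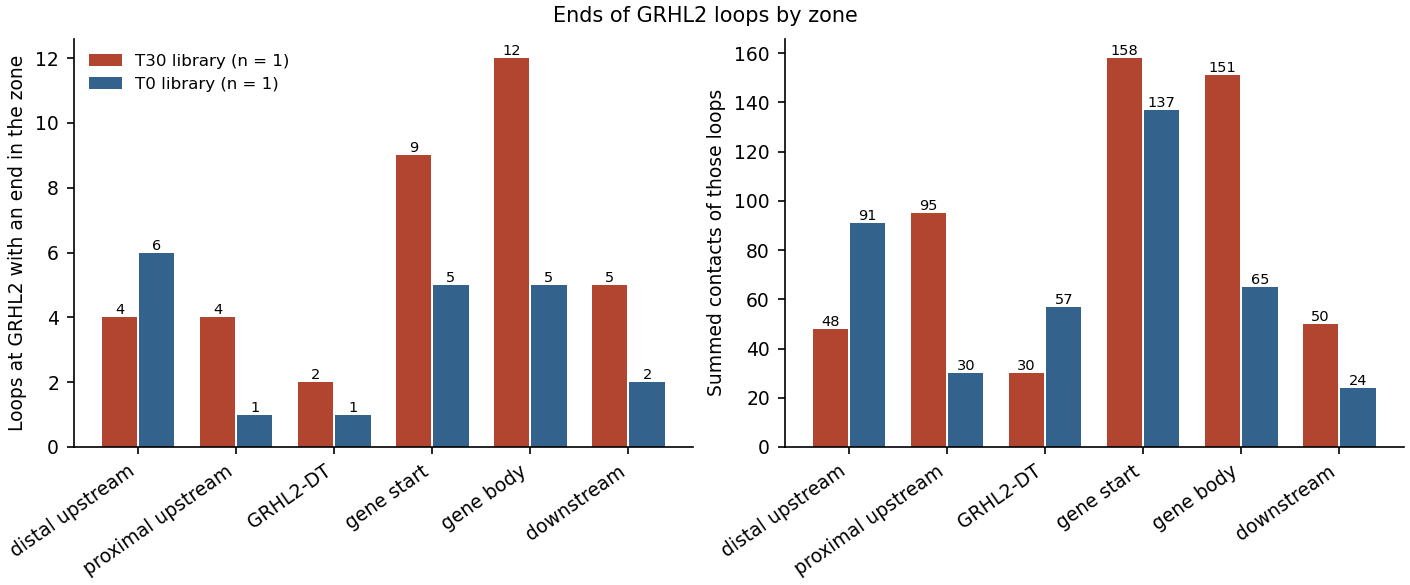
Loops at GRHL2 with an end in each zone (left) and their summed contacts (right), T30 beside T0, 1 library each; a loop counts in both of its zones. T30 bars are higher at the proximal upstream zone (95 against 30 contacts) and the gene body (151 against 65), and T0 bars at the distal upstream zone (48 in T30 against 91 in T0) and at GRHL2-DT (30 against 57). All 57 T0 contacts at GRHL2-DT, counted at the gene start too, belong to a 10 kb loop, a span that the T30 list lacks.

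The centre of the T30 loops was the bin from 101435001 to 101440000, an intergenic bin centred at -54.9 kb from the gene start. It had 11 partners and 305 contacts in T30, against 2 partners and 42 contacts in T0. By partners it ranked 25th of 13649 loop bins in T30 and 994th of 9909 in T0. Of the 11 partners in T30, 4 lay in the widened GRHL2 gene, while neither of the 2 in T0 did. The neighbouring bin at 101440001 had 0 partners in T30 and 1 partner with 30 contacts in T0, so part of the difference lay in a shift by a bin. Taken over the whole proximal upstream zone, loops to any place in the region numbered 11 with 305 contacts in T30 and 3 with 72 contacts in T0. Counted in the same way, the distal upstream zone had 10 loops with 160 contacts in T30 and 11 with 165 in T0. The GRHL2-DT zone had 7 with 131 in T30 and 2 with 72 in T0. From 180 kb below to 1000 kb above the gene start, 31 loops with 553 contacts were counted in T30 and 15 with 276 in T0. This count left out loops with both ends 190 kb or more above the gene start. Loops beside the gene, with neither end in it, made up 13 of the counted loops in T30 and 5 in T0.

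The loop with the most contacts at GRHL2 in T30 joined this bin to the bin at 101490001, which holds the start of the gene, with 49 contacts over 55 kb. Only 6 of 1538 T30 loops of like span (from 0.8 times 55 kb to 55 kb divided by 0.8) had as many contacts, itself included, and their median was 13. Its T0 match ran from 101440001 to 101485001, 1 bin further in at each end, with 30 contacts over 45 kb, where 62 of 313 loops of like span had as many and the median was 22. The authors' p-value for the loop was 1.79e-43 in T30 and 3.59e-07 in T0. After division by 0.667, the median ratio of contacts (T30 over T0) in 1385 shared loops, the log2 ratio was 1.29 (95% interval 0.61 to 2.00; exact two-sided binomial test, Benjamini-Hochberg adjusted p = 0.0117 over all shared loops). This loop was thus called higher in T30, as were 21 shared loops in all (1.52%), while 1 was called lower (0.0722%). Other scalings ended the call and turned the balance of calls, to 7 higher and 130 lower with the ratio of all listed contacts and to 6 and 46 without scaling. For this loop, division by 1.06, the ratio of all listed contacts, gave an adjusted p of 0.227, and unscaled contacts gave 0.220. Unscaled, the ratio of 49 to 30 contacts was 1.63 (1.02 to 2.67).

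Nearby contacts that the authors merged with a loop form its cluster, and here too the lists differed in extent. The T30 cluster of that loop summed 466 contacts over 4 by 15 bins (101430001 to 101450000, and 101455001 to 101530000), or 7.77 per pair of bins. Its T0 counterpart summed 100 contacts over 2 by 2 bins (101435001 to 101445000, and 101485001 to 101495000), or 25 per pair. The T30 cluster was wider, and it took in GRHL2-DT and the first part of GRHL2. Pairs here are all those in the range of a cluster. The authors' fraction of strong connections, whose base is not given, was 0.333 for the T30 cluster and 1 for its T0 counterpart. Contacts per pair thus divide by unlike sets of pairs, so which cluster was denser cannot be told from them. Summed over the clusters of GRHL2 loops, contacts came to 795 over 91 pairs of bins in 17 clusters in T30, and to 422 over 33 pairs in 10 clusters in T0.

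Some GRHL2 loops were shared by the lists. A loop counted as shared where, at each end, its cluster range overlapped that of a loop in the opposite library by at least 1 bp. This held for 4 of 18 GRHL2 loops in T30 (22.2%) and 3 of 10 in T0 (30%), while the whole lists gave 16.4% and 22.2%. Those overlaps gave 3 matched pairs, none with identical bins, and matching by bins within 10 kb gave 6. Besides the called loop, the loop from 101335001 to the gene start had 15 contacts in T30 (far bin 101500001) and 18 in T0 (101490001). The loop from 101360001 had 13 contacts in T30 (far bin 101495001) and 14 in T0 (101500001). Scaled log2 ratios were 0.32 (-0.77 to 1.39) and 0.48 (-0.73 to 1.68), with an adjusted p of 1 for each by the same exact binomial test. Both distal upstream bins therefore met the start of GRHL2 in each library, with contacts that did not differ beyond counting error; the sign of both ratios was negative under the other scalings.

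T0 loops at GRHL2 were led by a short one. It joined 101475001 and 101485001, both in GRHL2-DT, with 57 contacts over 10 kb, where 82 of 472 T0 loops of like span had as many. The T30 list holds no loop of that span, so its absence there cannot be read as a difference. T30 instead listed 18 contacts between 101465001 and 101490001, over 25 kb. With loops of at least 20 kb, T0 kept 9 loops at GRHL2.

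Inside the gene, T30 listed 3 loops from the bin at 101500001, about 10.1 kb into GRHL2. They reached 101520001 with 18 contacts, 101600001 with 15 and 101610001 with 10. Neither of the bins at 101600001 and 101610001 was a loop end in T0, and they had 3 and 4 partners in T30. Of the 5 T0 loops that met the gene body, 3 came from 101335001 or 101330001 in the distal upstream zone and ended close by, at 101605001 and 101615001 with 12 contacts each and at 101630001 with 17. The other 2 ran to the downstream side. T30 listed 1 loop from the distal zone to the gene body, of 10 contacts, from 101330001 to 101610001. Loops from the gene start or the proximal zone into the gene body numbered 3 each in T30 and 0 each in T0.

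Long loops ran from GRHL2 to the bin at 102195001, 705 kb above the gene start and 4501 bp below RRM2B, which encodes a ribonucleotide reductase subunit. T30 listed 4 of them, from 101495001, 101610001 and 101635001 with 10 contacts each and from 101600001 with 9. T0 listed 2, from 101650001 with 16 contacts and from 101630001 with 8. The distal bin was thus a partner of GRHL2 in both lists, with 39 contacts in T30 and 24 in T0, and the longest loop spanned 700 kb in T30 and 565 kb in T0. The T0 loop from 101650001 belonged to a cluster of 56 contacts over 5 bins, while each T30 loop stood alone in its cluster. A single T30 loop of 11 contacts joined the upper part of GRHL2 (101640001) to NCALD, a neuronal calcium sensor gene, at 101765001; NCALD falls outside the rule for partner genes and was named after its values were seen.

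Spans at GRHL2 had a median of 140 kb in T30 (95% interval 100 to 280, from order statistics) and 212.5 kb in T0 (45 to 545). The intervals overlap, and the medians differ in the direction of the whole lists, 80 kb in T30 and 190 kb in T0. Median contacts per loop were 12 in T30 and 16.5 in T0. Apart from the 49-contact loop, GRHL2 loops had 9 to 18 contacts in T30. Loops under a q-value of 0.01 numbered 17 in T30 and 8 in T0.

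**Figure D4:**
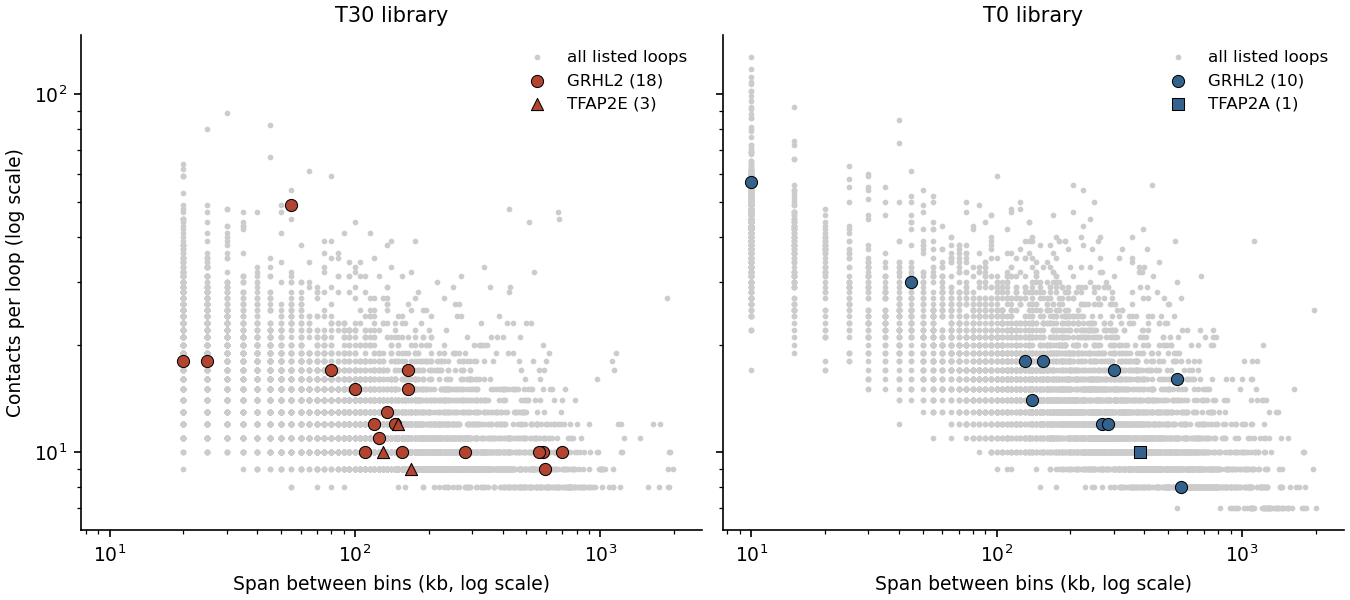
Contacts of each loop against its span, on log axes, for the T30 library (left) and the T0 library (right); grey points are all listed loops and coloured points those at GRHL2, TFAP2E and TFAP2A. The T30 loop of 49 contacts at 55 kb lies at the upper edge of the grey points, and the T0 loop of 57 contacts at 10 kb lies in a range of spans that the T30 list lacks.

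The other Grainyhead-like genes had no listed loop. GRHL1, which in mouse acts on desmosomes of the skin, lies on chromosome 2 (9951693 to 10002277). Its nearest loop end was 692 kb away in T30 and 1473 kb away in T0, with 2 and 0 loops within 1 Mb. GRHL3, which in mouse is needed for the skin barrier and for neural tube closure, lies on chromosome 1 (24319357 to 24364482). Loop ends came within 20.5 kb of it in T30 and 45.5 kb in T0. A T30 loop of 11 contacts from 24195001 to 24385001 and a T0 loop of 10 contacts from 24185001 to 24410001 passed over the whole gene and ended in STPG1 above it. GRHL3 thus lay inside a loop in both lists without being a listed end, and it gained the T30 loop when widened by 25 kb. GRHL1 lay in a stretch with no loop within 500 kb in either list, as did 22.4% of all genes in T30 and 28.9% in T0.

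TFAP2A, a factor of neural crest and facial development that breast epithelium also uses, lies on chromosome 6 (10396677 to 10419659). Its 1 T0 loop joined the bin at 10410001 to that at 10025001, in the pseudogene OFCC1, over 385 kb with 10 contacts and a q-value of 0.00315. Of 1152 T0 loops of like span 879 had as many contacts, so this was an ordinary loop of the list. T30 had none at the gene, and its nearest loop end lay 55.3 kb above it. There, T30 listed loops from 10475001 and 10510001 to MAK (10 contacts each) and from 10510001 to TMEM14C (9 contacts). TFAP2E, an AP-2 gene known in mouse from the olfactory bulb, lies on chromosome 1 (35573314 to 35595591). Its 3 T30 loops shared the bin at 35570001 and ran upward to 35700001 with 10 contacts, to 35720001 with 12 and to 35740001 with 9. The last 2 end in CLSPN, which encodes a checkpoint adaptor of DNA replication, and CLSPN was the only gene that met the rule for partner genes. T0 listed no loop end within 273 kb of TFAP2E. With 3 partners in T30 and 0 in T0, TFAP2E met the rule of at least 2 times as many and 3 more, as did 5.18% of all genes, while 2.66% met the opposite rule of at least 3 fewer, which no member met. TFAP2E did not meet its rule in every setting. Its partners in T30 numbered 1 with a q-value under 0.01, 2 with at least 10 contacts and 2 with lists of equal length. The median over T30 loops of like span was 11 contacts for each of the 3 loops. As many contacts were held by 38.7% of such loops for the loop of 12 contacts, by 88.9% for that of 10 and by 99.6% for that of 9. The loops of 10 and 9 contacts were thus weak for their span, and 1 of the 3 had a q-value under 0.01.

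The start sites of both genes lay in the bins that looped, so their promoter windows are shown. The bin at 35570001 holds the start of TFAP2E and part of the antisense gene TFAP2E-AS1. The bin at 10410001 holds an inner start of TFAP2A, on the minus strand, and part of TFAP2A-AS1, but not the outer start of TFAP2A. Windows run from 250 bases before to 50 bases after the start, 5′ to 3′ on the strand of the gene, from RefSeq (GRCh38.p14), as chr1:35573064-35573363 (plus strand) and chr6:10412342-10412641 (minus strand). Capitals mark the bases from the start site on.
TFAP2E: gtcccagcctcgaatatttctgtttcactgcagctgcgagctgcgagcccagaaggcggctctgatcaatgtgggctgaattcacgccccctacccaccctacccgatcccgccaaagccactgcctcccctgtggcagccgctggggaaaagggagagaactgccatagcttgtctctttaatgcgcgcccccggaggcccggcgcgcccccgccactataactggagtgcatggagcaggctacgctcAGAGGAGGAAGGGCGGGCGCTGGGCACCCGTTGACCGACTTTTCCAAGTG
TFAP2A: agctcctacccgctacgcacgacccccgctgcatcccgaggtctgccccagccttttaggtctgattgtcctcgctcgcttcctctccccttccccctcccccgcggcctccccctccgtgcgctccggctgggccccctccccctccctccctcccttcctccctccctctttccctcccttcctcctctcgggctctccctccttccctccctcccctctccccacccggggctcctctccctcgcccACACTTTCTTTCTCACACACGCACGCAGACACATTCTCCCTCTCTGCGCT

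The windows had a GC content near or above that of other promoters, with 62.7% GC and 20 CG pairs at TFAP2E and 68.0% and 18 at TFAP2A, against medians of 62.3% and 21 over 22198 windows of protein-coding genes. Windows in the reference table matched 5 of the 7 members, with 7 windows in all. GRHL2 and TFAP2C had no window, so their promoters were not searched. Among all windows, 9.32% lay in a loop's bin in T30 and 8.66% in T0; among the 7 member windows, 1 did in T30 and 1 in T0. Letters were searched on both strands. The progesterone receptor's full inverted-repeat element was in none of the 7 member windows and in 0.293% of all windows. Its half-site AGAACA, which can overlap the full element, was in none and in 11.7%. The grainyhead site AACCGGTT was in none and in 0.167%. The AP-2 site GCCNNNGGC was in 1 of the 7, at base 201 of the second GRHL3 window, and in 27.3% of all windows. A missing match says only that these letters are not in these windows.

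The other AP-2 genes had no listed loop. TFAP2B, which in mouse acts in kidney and the ductus arteriosus, lies on chromosome 6 (50818355 to 50847619). Its nearest loop end was 707 kb away in T30 and 948 kb away in T0. TFAP2C, the AP-2 factor best known in luminal breast cancer, lies on chromosome 20 (56629306 to 56639283). Within 1 Mb of TFAP2C there were 22 loops in T30 and 2 in T0, and within 500 kb 6 and 0. Over all genes the median within 1 Mb was 7 loops in T30 and 5 in T0. Nearest were T30 loops of 10 contacts each from 56735001 and 56755001, both to 56805001, whose near ends lay 95.7 kb and 115.7 kb from the gene. A loop of 12 contacts ended 299 kb below the gene, and the others lay 446 kb and more above it, among them loops in BMP7, RBM38, CTCFL and ZBP1. TFAP2C thus had more listed loops around it in T30 without being a loop end.

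Lists of related genes were described by counts, over 5 lists with 54 genes that are not members; earlier results of these data were known when they were written. Of 22 epithelial genes known as GRHL targets, 13 had a loop in T30 and 14 in T0 (59.1% and 63.6%, against 32.1% and 27.2% of all genes), 12 of them in both. Among these 22 genes 5 had more partners in T30 and 9 had fewer (22.7% and 40.9%), against 21.3% and 15% of all genes. Of all genes with a loop in either list, 51.5% had more and 36.2% fewer. Those last shares leave out genes without a loop, whereas the shares of the 22 genes include them. KRT8, a luminal keratin, had 4 loops with 71 contacts in T30 and 7 with 228 in T0. ST14, the membrane protease matriptase, had 2 with 20 contacts in T30 and 5 with 132 in T0. CDH1, the epithelial cadherin, had 1 loop in T30 and 4 in T0, and CLDN4, a tight junction claudin, had 4 in T30 and 1 in T0. KRT8 and KRT18 are neighbours, as are CLDN3 and CLDN4, so such members can share loops. The direction at GRHL2, with more partners in T30, was thus not the more common one in this list, and the median difference was 0 partners, as over all genes.

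Among 12 genes known as AP-2 targets in breast, 8 had a loop in T30 and 6 in T0 (66.7% and 50%, against 32.1% and 27.2% of all genes), all 6 in both. More partners in T30 were found at 4 and fewer at 2 (33.3% and 16.7%, against 21.3% and 15% of all genes). IGFBP5, which encodes a binding protein of insulin-like growth factors, had 4 loops in each list, CDKN1A, a cell cycle inhibitor gene, 2 in each, and KRT14, a basal keratin, 2 in each. RET, a receptor tyrosine kinase gene, had 4 loops with 58 contacts in T30 and 0 in T0. Of 8 AP-2 partners, 2 had a loop in T30 and 3 in T0 (25% and 37.5%, near those shares of all genes), and 1 had more and 1 fewer partners in T30 (12.5% each, against the same 21.3% and 15%). CITED4, a coactivator of AP-2, had 3 loops in each list, WWOX, which binds AP-2 proteins, 2 in T30 and 3 in T0, and CITED2 0 in T30 and 1 in T0. Of 4 relatives outside the 7 (TFAP2D, TFCP2, TFCP2L1 and UBP1), 0 had a loop in T30 and 1 in T0 (25%, against 27.2% of all genes), the loop of TFCP2. Among 9 luminal cofactors and other factors of this lineage 6 had a loop in each list (66.7%, against 32.1% of all genes in T30 and 27.2% in T0), the same 6 in both (17.9% of all genes). More partners in T30 were found at 4 and fewer at 2 (44.4% and 22.2%, against 21.3% and 15% of all genes). Genes without a loop count in all these shares, here and for the AP-2 lists. Of all genes with a loop in either list, 51.5% had more partners in T30 and 36.2% fewer. EHF, an epithelial ETS factor, had 13 loops in T30 and 2 in T0, TRPS1, a GATA-type repressor, 9 and 2, GATA3 7 and 6, and ELF3, another epithelial ETS factor, 4 and 7. In the binomial test of loops 8 genes of these 5 lists had the 6 loops it needs and none passed; over all genes 18 did.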

How the data were processed

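HiChIP loops of 2 libraries of T47D cells, 1 per condition, were analysed out of 23 samples of the series. The authors deposited a list of merged loops per library; the names FitHiC, a q-value of 0.05 and merging of near contacts stand in the file names, and Bowtie and hg38 are named, without a role, in the submitters' processing notes. Counts of contacts between bins of 5 kb, and counts summed over a merged cluster, are values as deposited by the authors, without scaling. Each loop also carries a bias-corrected p-value and q-value, per the file headers. A fraction for each cluster is also given by the authors, under the header StrongConn, which does not say what it is a fraction of. It was used only beside the contacts per pair of bins in the clusters of the called GRHL2 loop. Read filters and sequencing depth were not given in the sources used here.

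Genes came from RefSeq (GRCh38.p14), 20033 of them protein-coding on chromosomes 1 to 22, X and Y. Members and gene lists were chosen with earlier results of these data known. Loops per gene (at least 6 in both lists together, 1473 genes) were compared with the share of T30 in all loops, 57.5%, and contacts of 1385 shared loops with the median ratio. Both used exact two-sided binomial tests with Benjamini-Hochberg adjustment at 0.05. These compare 2 libraries, not 2 conditions. The tests were tried on simulated data: of shared loops made 3-fold higher, 46 of 100 were called. Genes named besides the members were those joined to a member by at least 2 loops in 1 list or by a loop in both, and up to 4 per gene list with most loops; bins and loops named were every shared loop and those with most contacts, most partners or the longest span, and the rest of GRHL2. Alternatives changed the widening, q-value, contacts, span, list length, scaling and matching. Python 3.11.15, pandas 2.3.3, numpy 2.4.6, scipy 1.17.1 and matplotlib 3.10.9 were used.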

Additional observations from a re-analysis of the deposited data

How the results depend on the processing

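With 1 library per condition, the 7 genes' loop ratio of 1.91 (exact 95% interval 0.880 to 4.38) lay between 1.82 (lists of equal length) and 2.63 (unwidened gene bodies), and the genes with a loop stayed 2 in T30 and 2 in T0 in every setting but a widening by 25 kb, which gave GRHL3 1 loop in T30. The adjusted p of GRHL2 in the exact binomial test of loops ranged from 0.491 to 0.879 over the alternatives. With unwidened gene bodies, partners of the members numbered 5 in T0, against 8, and no relative of the families had a loop in T0 (0, against 1). TFAP2E, with 3 partners in T30, had 1 with a q-value under 0.01, so it no longer met the rule for partners. The 1 call among the 3 shared GRHL2 loops became 0 under the ratio of summed contacts and 0 without scaling, where the called loop's log2 ratio was 0.62 and 0.71. Log2 ratios of the other shared loops turned negative: from 101335001 to -0.35 with summed contacts and -0.26 without scaling, and from 101360001 to -0.20 and -0.11. Over all shared loops, 7 were then called higher in T30 and 130 lower with summed contacts, and 6 and 46 without scaling; the cause was not tested. Matching by identical bins left no shared loop at a member. No paired analysis was possible because each condition had 1 library. Low contacts per loop (9 to 49 at GRHL2 in T30, 8 to 57 in T0) limit what a comparison of single loops can detect.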
